A study of Mus musculus with 8 samples.

Results

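The genes described here are 45 genes for signalling and cytoskeleton proteins that are best known from blood-derived cells: surface and membrane proteins, tyrosine kinases and phosphatases, adaptors, subunits of phosphoinositide 3-kinase gamma, regulators of small GTPases, and actin and adhesion proteins. They were taken by symbol from a table of raw read counts, in which all 45 were found among 53278 gene symbols. RNA was sequenced from whole forebrain of 8 male C57BL/6J mice between 10 and 20 weeks old, a wild-type strain with no transgene named in the labels. Mice 1 to 4 of the PLX3397 group received food with PLX3397, a small-molecule inhibitor of the colony stimulating factor 1 receptor (CSF1R) on which microglia depend for survival, and mice 1 to 4 of the control group received control food; feeding lasted 9 days in both groups. PLX3397 is also known to inhibit the related receptor kinases KIT and FLT3. Each library is 1 animal, the labels give no age per animal, and no batch is named.

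Leukocytes relay signals from surface receptors through Src and Tec family kinases to adaptor proteins, which assemble phosphoinositide 3-kinase and exchange factors for small GTPases such as Rac, Ras and Rap. These GTPases in turn act on WASP, the WAVE complex, coronins and actin-bundling proteins, so that a receptor signal ends in movement, adhesion or engulfment. Microglia are the resident macrophages of the brain and carry the same machinery. Many of its parts have a close relative that neurons and glia use, such as Vav2 beside Vav1.

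Each library held between 48455538 and 68406688 counts, with 4.76% to 6.34% of them on mitochondrial genes. Csf1r, the target of the drug, stood at 1.14, 0.386, 1.66 and 1.69 CPM (reads of the gene as a share of the library, after TMM scaling) in PLX3397 mice, against 51.6, 65.0, 58.8 and 59.0 CPM in control mice, which is -5.57 as a log2 fold change (SE 0.31, adjusted p = 1.01e-05). All 12 microglial marker genes, among them Cx3cr1, P2ry12 and Tmem119, fell; together they held 20.2 to 24.6 CPM in PLX3397 mice and 220 to 267 CPM in control mice. The forebrain label was checked with Slc17a7, the vesicular glutamate transporter gene of cortical neurons, which averaged 939 CPM in PLX3397 mice and 1224 CPM in control mice (adjusted p = 0.616). Of the 8 forebrain neuron markers listed, Slc17a7 among them, 6 had positive and 2 negative log2 fold changes, from -0.38 to 0.59. None of the 8 had an adjusted p under 0.05 by edgeR. In RNA from whole tissue, fewer microglia and less RNA per microglial cell cannot be told apart. Transcripts of the hypothalamic neuropeptide gene Hcrt were present at 1249 and 2081 counts in PLX3397 mice 2 and 3 and at 1578 and 1628 counts in control mice 2 and 3, but at only 4 to 12 counts in the other libraries, so each group holds libraries of both kinds. By a sum of 6 hypothalamic neuropeptide genes the division is less clean, since PLX3397 mouse 4, with few Hcrt reads, held 57.6 CPM, against 4.90 to 10.4 CPM in the other libraries with few Hcrt reads.

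The promoters of genes of the myeloid lineage often hold purine-rich sites of the ETS family factor PU.1, which the gene Spi1 encodes. The stretches printed here are the last 100 bases before a transcription start, 5' to 3' on the gene's own strand, from the RefSeq promoter table of build GRCm38.p6, and capitals mark GAGGAAG or its reverse complement CTTCCTC. Apart from that of Vav2, the stretches were chosen because they hold these letters. Many genes that were lower in PLX3397 mice, such as Arhgap30 and Cd53, hold none in these bases. The first 4 stretches belong to genes that were lower in PLX3397 mice. They are Vav1 (chr17:57279000-57279099, plus strand), Laptm5 (chr4:130913216-130913315, plus strand), Cd37 (chr7:45238840-45238939, minus strand) and Dock2 (chr11:34783906-34784005, minus strand).
Vav1: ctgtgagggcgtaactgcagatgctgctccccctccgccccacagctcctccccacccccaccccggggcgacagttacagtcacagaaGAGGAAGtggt
Laptm5: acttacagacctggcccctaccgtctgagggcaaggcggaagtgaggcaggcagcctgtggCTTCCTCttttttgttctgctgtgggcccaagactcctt
Cd37: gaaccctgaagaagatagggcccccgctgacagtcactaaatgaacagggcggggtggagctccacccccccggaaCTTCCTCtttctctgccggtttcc
Dock2: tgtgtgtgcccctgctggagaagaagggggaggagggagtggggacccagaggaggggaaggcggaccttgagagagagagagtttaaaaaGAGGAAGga

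The same letters also stand before genes of the set that did not pass the test between the groups, such as Csf2ra (chr19:61228419-61228518, minus strand), where they occur in tandem, and Rasgrp3 (chr17:75435805-75435904, plus strand, 1 of its starts). Parvg and Pik3ap1, which did not pass either, also hold them but are not printed. Vav2 (chr2:27427609-27427708, minus strand), the widely expressed relative of Vav1, has no match in these bases, while Arhgdia, the relative of Arhgdib, has 1.
Csf2ra: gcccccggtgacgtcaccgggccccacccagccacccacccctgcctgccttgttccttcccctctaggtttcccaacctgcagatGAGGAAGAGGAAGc
Rasgrp3: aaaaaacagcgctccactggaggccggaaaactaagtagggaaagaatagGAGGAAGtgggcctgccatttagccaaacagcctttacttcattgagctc
Vav2: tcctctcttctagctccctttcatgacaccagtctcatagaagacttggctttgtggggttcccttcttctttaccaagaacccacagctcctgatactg

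The RefSeq table held a window from 250 bases before to 50 bases after the start for 36 of the 45 genes. GAGGAAG, on either strand, was found in 15 of these 36 genes (41.7%), against 4152 of all 27025 genes in the table (15.4%). By the outcome of the test, it was in 10 of 26 genes that were lower (38.5%), in 4 of 9 that did not pass (44.4%) and in 1 of 19 of the widely expressed relatives (5.26%). The shorter ETS letters GGAAGT, which overlap the longer motif where a T follows it, were in 23 of 36 genes (63.9%), against 26.5% of all genes. They were in 65.4% of the genes that were lower, 55.6% of those that did not pass and 6 of 19 relatives (31.6%). These are letter matches in a fixed window and no measure of binding.

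By the exons of GENCODE M21 on the mm10 build, 3 of the 45 genes share bases with another gene on the same strand (Csf2rb, Evi2a and Evi2b), 11 share them only with a gene on the opposite strand and 31 share none. Whether reads were counted by strand is not given in the sources used here, so reads of such a partner cannot be told apart from those of the gene. The partners of Cd37, Cd52, Fermt3 and Coro1a, which are Tead2, Crybg2, Trpt1 and Bola2, did not pass the test between the groups.

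Of the 45 genes, 44 passed the filter on low counts and were tested within a fit of all 20140 genes that passed it. With an adjusted p of 0.05 as the threshold, 34 of the 44 were lower in PLX3397 mice, where 1.11% of all genes tested were lower and 1.16% passed in either direction. None was higher by edgeR, against 0.0546% of all genes, and none was higher by DESeq2 or limma-voom. At an unadjusted p of 0.05, 38 were lower and none was higher, against 1128 lower and 1084 higher of all 20140 genes. In 37 of the 44 the CPM of every PLX3397 mouse lay below that of every control mouse, against 3.50% of all genes; none lay above in every mouse, as 2.28% of all genes did. The median log2 fold change of the 44 was -2.40, with a range from -5.58 to 0.19, and the median of all genes was -0.00038. In 12 of the 44 every PLX3397 library was under the filter's level of about 0.186 CPM, so these genes passed the filter through the control mice, and the counts and the median are given as a description.

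The size of the fall was uneven. Of the 44 genes tested, 18 kept under 10% of their control level in PLX3397 mice, 7 of these under 5%, while 18 kept between 10% and 50%, and 8 kept over 50%. Called falls of over 4-fold were seen in 25 of the genes, against 139 genes called lower by that much in the whole table, and of over 16-fold in 11, against 58 in the whole table. The genes that fell were mostly weakly expressed: their control means ran from 0.408 to 20.8 CPM with a median of 2.86, against 1.05 to 106 CPM with a median of 10.1 in the 10 that did not pass. Of the 7 genes over 10 CPM in control mice, Laptm5 and Unc93b1 were lower and the other 5, Csf2ra, Evi2a, Rasgrp3, Rgs10 and Coro1a, did not pass. Across the 44 genes, the control level per kilobase of exon and the log2 fold change had a Spearman correlation of 0.37, a description over genes measured in the same 8 libraries.

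**Figure D1:**
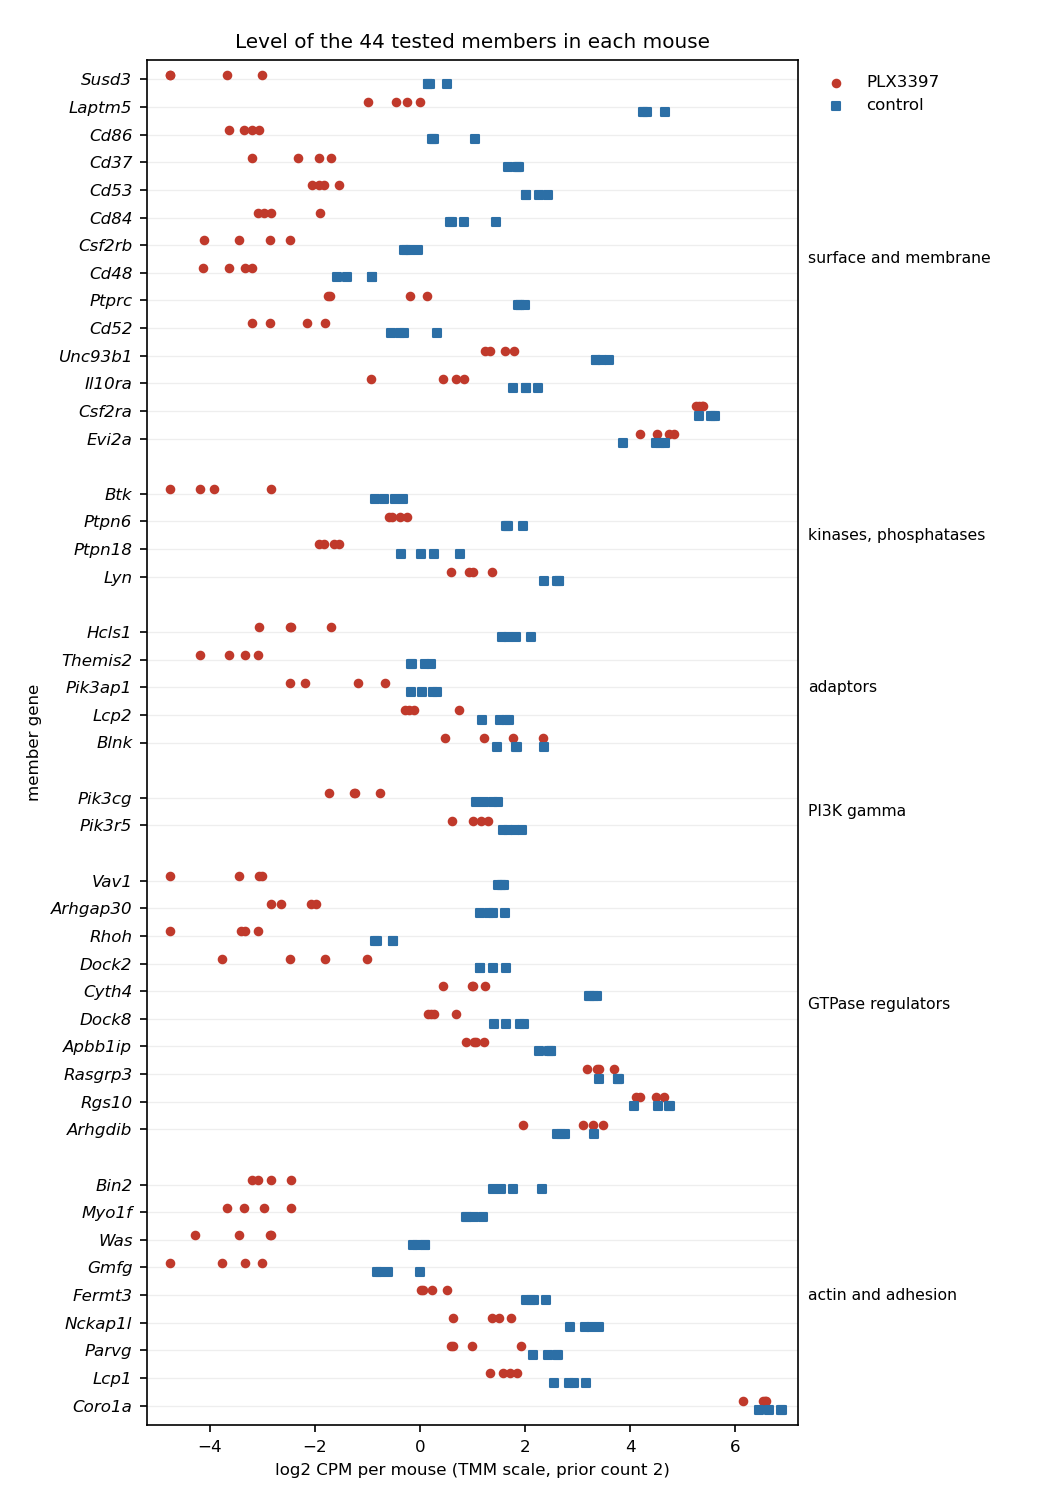
Level of each tested gene in each mouse, as log2 CPM (TMM scale, prior count 2), grouped by role and sorted by fold change; red circles are PLX3397 mice, drawn above the blue squares of control mice, and each point is 1 mouse. Genes such as Vav1 and Laptm5 show widely separated groups, and Coro1a, Evi2a, Rgs10 and Arhgdib show overlapping ones.

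Among the surface and membrane proteins, 12 of 14 tested were lower, with a median log2 fold change of -3.16 over the 14. Laptm5, a lysosomal membrane protein of hematopoietic cells, stood at 0.689, 0.468, 0.967 and 0.802 CPM in PLX3397 mice, against 18.9, 25.2, 20.1 and 19.2 CPM in control mice (log2 fold change -4.81, SE 0.20, adjusted p = 2.18e-06). The highest PLX3397 value of Laptm5 is far under the lowest control value, and 3.51% of the control level was left. Susd3, a membrane protein with a sushi domain, had no read in PLX3397 mice 1 and 2 and 0.0866 and 0.0411 CPM in mice 3 and 4, against 1.08, 1.40, 1.10 and 1.07 CPM in control mice (log2 fold change -4.95, SE 0.55, adjusted p = 0.000932). Its PLX3397 level rests on 8 counts in all, against 245 in control mice, and without PLX3397 mouse 3 the log2 fold change of Susd3 was -6.23.

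The other surface genes that fell form a graded series. Cd86, a costimulatory ligand of antigen-presenting cells, fell by 4.38 on the log2 scale, and the tetraspanins Cd37 and Cd53 fell by 4.27 and 4.19. The SLAM family receptors Cd84 and Cd48 fell by 3.78 and 2.98. Csf2rb, the signalling chain shared by the receptors for GM-CSF, IL-3 and IL-5, fell by 3.34, and Ptprc, which encodes the receptor phosphatase CD45, fell by 2.65. Cd52, a small GPI-anchored glycoprotein, fell by 2.44 and Unc93b1, the chaperone of nucleic acid-sensing Toll-like receptors, by 1.94 (SE 0.14). Il10ra, the ligand-binding chain of the IL-10 receptor, had the smallest called fall of the class, -1.65 (SE 0.31, adjusted p = 0.0362), and its call was lost when PLX3397 mouse 3 or 4 or any 1 of the control mice was left out (adjusted p from 0.0705 to 0.128). Ptprc varied among PLX3397 mice, which kept between 6.90% and 28.1% of its control mean.

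The remaining surface genes did not pass. Csf2ra, the ligand-binding chain of the GM-CSF receptor, stood at 38.2, 39.8, 41.7 and 41.4 CPM in PLX3397 mice, against 49.2, 47.7, 46.4 and 39.8 CPM in control mice (log2 fold change -0.19, SE 0.07, adjusted p = 0.396). Control mouse 4 lies inside the PLX3397 range, while the other control mice lie above it; its partner chain Csf2rb was among the genes that fell. Evi2a, a membrane protein encoded within an intron of Nf1, stood at 18.3, 22.7, 28.4 and 26.8 CPM in PLX3397 mice, against 25.4, 22.5, 23.7 and 14.6 CPM in control mice (log2 fold change 0.16, SE 0.18, adjusted p = 0.809). The oligodendrocyte marker Mbp, singled out after its values were seen, stood at 2592, 3293, 3922 and 3506 CPM in PLX3397 mice, against 3714, 3046, 2986 and 1732 CPM in control mice, so that PLX3397 mouse 3 is highest and control mouse 4 lowest in both; the part of this in the Evi2a level was not tested. Its neighbour Evi2b did not pass the filter: PLX3397 mice 1 and 4 had 1 read each, PLX3397 mice 2 and 3 had none, and no control mouse had any. Both genes share exon bases on the same strand with the read-through gene Evi2, which held 0.0359 CPM in PLX3397 mice and 0.105 CPM in control mice. Evi2b shares 1831 of its 1858 exon bases in this way and Evi2a 442 of its 2297. How reads on shared bases were counted is not stated, so the few reads of Evi2b are no measure of its level.

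All 4 kinases and phosphatases were lower, with a median log2 fold change of -2.15. Btk, the Tec family kinase of B cells and myeloid cells, stood at 0.0181, 0, 0.0289 and 0.103 CPM in PLX3397 mice, against 0.585, 0.680, 0.515 and 0.758 CPM in control mice (log2 fold change -4.05, SE 0.52, adjusted p = 0.00282). Lyn, a Src family kinase, stood at 1.47, 2.54, 1.88 and 1.97 CPM in PLX3397 mice, against 5.08, 6.20, 6.08 and 6.21 CPM in control mice (log2 fold change -1.59, SE 0.17, adjusted p = 0.000674). Both sets of groups are separate, but 33.3% of the control level of Lyn was left, against 5.91% of that of Btk. Without PLX3397 mouse 4, the highest of its group, the log2 fold change of Btk was -5.04. Ptpn6, which encodes the phosphatase SHP-1 that opposes such kinases, stood at 0.653, 0.630, 0.736 and 0.802 CPM in PLX3397 mice, against 3.11, 3.87, 3.07 and 3.14 CPM in control mice (log2 fold change -2.22, SE 0.16, adjusted p = 4.42e-05). Ptpn18, a phosphatase of the PEST type, stood at 0.308, 0.285, 0.245 and 0.226 CPM in PLX3397 mice, against 1.17, 1.67, 0.974 and 0.740 CPM in control mice (log2 fold change -2.08, SE 0.29, adjusted p = 0.00423). The PLX3397 mice lie close together for both phosphatases, at 21.4% and 23.4% of the control means. Ptpn18 shares exon bases with the opposite-strand gene Gm28417, at 0.101 CPM in PLX3397 mice and 0.437 CPM in control mice.

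Among the adaptors, 3 of 5 were lower and the median log2 fold change was -1.62. Hcls1, the hematopoietic relative of cortactin, stood at 0.272, 0.142, 0.144 and 0.0823 CPM in PLX3397 mice, against 3.18, 4.30, 2.92 and 3.51 CPM in control mice (log2 fold change -4.41, SE 0.29, adjusted p = 3.22e-05). Themis2, an adaptor of B cells and macrophages, stood at 0.0181, 0.0814, 0.0433 and 0.0617 CPM in PLX3397 mice, against 0.859, 1.11, 1.03 and 0.851 CPM in control mice (log2 fold change -4.21, SE 0.33, adjusted p = 8.74e-05). Hcls1 kept 4.60% and Themis2 5.31% of the control level, and the groups of neither gene overlap. Lcp2, which encodes SLP-76, stood at 0.780, 1.63, 0.822 and 0.884 CPM in PLX3397 mice, against 2.23, 3.21, 2.83 and 3.09 CPM in control mice (log2 fold change -1.47, SE 0.25, adjusted p = 0.0195). PLX3397 mouse 2 stands above the other PLX3397 mice but under every control mouse, and the call of Lcp2 was lost when PLX3397 mouse 1, 3 or 4 or control mouse 2, 3 or 4 was left out (adjusted p from 0.0554 to 0.0812).

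Blnk, which encodes SLP-65, the B-cell counterpart of SLP-76, stood at 5.04, 1.36, 2.28 and 3.37 CPM in PLX3397 mice, against 3.58, 3.50, 2.72 and 5.09 CPM in control mice (log2 fold change -0.30, SE 0.35, adjusted p = 0.812). PLX3397 mice 2 and 3 lie below every control mouse and mice 1 and 4 within the control range, and in both groups mice 2 and 3, those with Hcrt reads, have the lowest values. Pik3ap1, the adaptor BCAP that binds phosphoinositide 3-kinase, was lower in every PLX3397 mouse (0.144 to 0.592 CPM) than in any control mouse (0.845 to 1.22 CPM), but its log2 fold change, -1.62 with an SE of 0.39, had an adjusted p of 0.126. Without PLX3397 mouse 3, the highest of its group, the adjusted p of Pik3ap1 was 0.0335, and by DESeq2 on all mice it was 0.00572.

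Of phosphoinositide 3-kinase gamma, the catalytic subunit gene passed the test and the regulatory subunit gene did not. Pik3cg, encoding p110 gamma, stood at 0.381, 0.264, 0.390 and 0.555 CPM in PLX3397 mice, against 2.06, 2.29, 2.57 and 2.76 CPM in control mice (log2 fold change -2.60, SE 0.23, adjusted p = 0.000172). Pik3r5, encoding p101, stood at 2.21, 1.97, 2.42 and 1.48 CPM in PLX3397 mice, against 3.49, 3.17, 2.96 and 3.81 CPM in control mice (log2 fold change -0.73, SE 0.17, adjusted p = 0.116). The groups do not overlap for either gene; 16.4% of the control level of Pik3cg was left and 60.2% of that of Pik3r5. DESeq2 called Pik3r5 lower, with an adjusted p of 0.00544.

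Among the regulators of GTPases and G proteins, 7 of 10 were lower, with a median log2 fold change of -1.89. Vav1, an exchange factor for Rac, fell furthest of all 44 genes: 0.0544, 0, 0.0866 and 0.0823 CPM in PLX3397 mice, against 2.76, 2.92, 3.00 and 2.87 CPM in control mice (log2 fold change -5.58, SE 0.38, adjusted p = 3.29e-05). Its PLX3397 level rests on 13 counts, against 611 in control mice, and 1.93% was left. In GENCODE M21 on mm10, Vav1 spans chr17:57279100-57328031 on the plus strand. Arhgap30, a GTPase-activating protein, stood at 0.200, 0.122, 0.216 and 0.103 CPM in PLX3397 mice, against 2.45, 3.05, 2.57 and 2.16 CPM in control mice (log2 fold change -3.94, SE 0.25, adjusted p = 2.75e-05). No PLX3397 mouse comes near the range of the control mice for either gene.

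The other called genes of this class fell by less. Rhoh, a small GTPase that does not hydrolyse GTP, fell by 3.52 on the log2 scale, and Dock2, a Rac exchange factor, by 3.43. Dock2 spanned 1.45% to 18.5% of its control mean among PLX3397 mice, and without mouse 3, the highest, its log2 fold change was -4.15. Cyth4, an exchange factor for ARF GTPases, fell by 2.36 (SE 0.16). Dock8, an exchange factor for Cdc42, and Apbb1ip, the Rap1 effector RIAM that links to integrin activation, fell by 1.43 and 1.40 and kept 37.0% and 38.0% of their control levels. All of these had groups without overlap.

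The GTPase regulators that did not pass were among the more strongly expressed genes of the class. Rgs10, which speeds GTP hydrolysis by G protein alpha subunits, stood at 17.2, 18.3, 24.9 and 22.5 CPM in PLX3397 mice, against 23.1, 27.0, 26.8 and 16.8 CPM in control mice (log2 fold change -0.17, SE 0.17, adjusted p = 0.771). Arhgdib, a dissociation inhibitor of small GTPases, stood at 8.52, 3.88, 11.1 and 9.81 CPM in PLX3397 mice, against 6.08, 9.93, 6.78 and 6.44 CPM in control mice (log2 fold change 0.19, SE 0.29, adjusted p = 0.861). The groups overlap for both, with the lowest value of Rgs10 in control mouse 4 and that of Arhgdib in PLX3397 mouse 2. The summed level of 8 striatal neuron markers, among them Drd1 and Penk, was 2609, 789, 3140 and 2482 CPM in PLX3397 mice, against 315, 1604, 1010 and 658 CPM in control mice. As for Arhgdib, mouse 3 is highest and mouse 2 lowest in the PLX3397 group and mouse 2 is highest and mouse 1 lowest in the control group; the part of this in the Arhgdib level was not tested. Rasgrp3, a Ras exchange factor activated by diacylglycerol, did not pass (log2 fold change -0.27, SE 0.13, adjusted p = 0.482), at 10.7 ± 1.61 CPM in PLX3397 mice and 12.9 ± 1.58 CPM in control mice (SD, n = 4 each).

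Among the actin and adhesion proteins, 7 of 9 were lower, and the median log2 fold change was -1.98. Bin2, a membrane-bending BAR domain protein of leukocytes, stood at 0.0725, 0.0814, 0.144 and 0.103 CPM in PLX3397 mice, against 2.87, 4.98, 3.36 and 2.57 CPM in control mice (log2 fold change -5.04, SE 0.31, adjusted p = 2.27e-05). Myo1f, a class I myosin, stood at 0.0907, 0.0610, 0.144 and 0.0411 CPM in PLX3397 mice, against 1.81, 2.27, 2.00 and 1.83 CPM in control mice (log2 fold change -4.45, SE 0.30, adjusted p = 3.29e-05). Bin2 kept 2.91% and Myo1f 4.26% of the control level. Lcp1, the actin-bundling L-plastin, stood at 2.48, 3.56, 2.96 and 3.25 CPM in PLX3397 mice, against 8.95, 7.62, 7.09 and 5.86 CPM in control mice (log2 fold change -1.27, SE 0.16, adjusted p = 0.00215). With 41.5% left it had the smallest fall of the 34 genes called.

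Between these lie Was, encoding the Wiskott-Aldrich syndrome protein that activates the Arp2/3 complex, with a fall of 3.86 on the log2 scale, and Gmfg, which acts on Arp2/3 branches, with a fall of 3.71. Fermt3, the integrin activator kindlin-3, fell by 1.98 (SE 0.16), and Nckap1l, the HEM1 subunit of the leukocyte WAVE complex, by 1.84 (SE 0.22). Nckap1l kept 16.6% of its control mean in PLX3397 mouse 2 and 36.1% in mouse 4.

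Parvg and Coro1a did not pass. Parvg, an adaptor between integrin-linked kinase and actin, stood at 1.94, 3.76, 1.50 and 1.46 CPM in PLX3397 mice, against 6.17, 5.40, 4.43 and 6.10 CPM in control mice (log2 fold change -1.36, SE 0.29, adjusted p = 0.0730). The groups of Parvg are separate, with PLX3397 mouse 2 highest in its group; without that mouse the log2 fold change was -1.75 and the adjusted p 0.000925, and DESeq2 (0.000220) and limma-voom (0.0221) called it lower with all mice. Coro1a, a coronin that regulates actin turnover, stood at 95.3, 96.4, 71.1 and 93.1 CPM in PLX3397 mice, against 118, 101, 87.6 and 119.6 CPM in control mice (log2 fold change -0.26, SE 0.12, adjusted p = 0.484). Only control mouse 3 lies inside the PLX3397 range. Per kilobase of exon, Coro1a had the highest level of all 45 genes, 32.0 CPM per kb in PLX3397 mice and 38.3 CPM per kb in control mice, against 0.193 and 5.50 CPM per kb for Laptm5, the highest of the genes called.

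**Figure D2:**
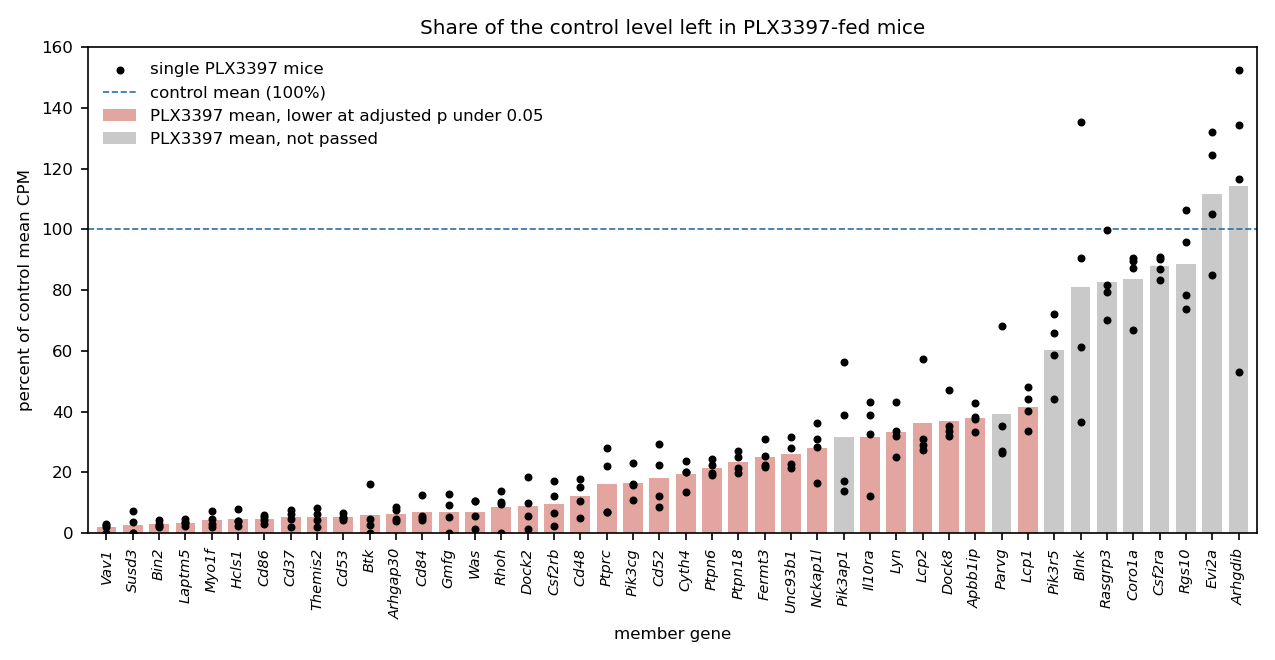
Level in PLX3397 mice as a percent of the control mean, for each tested gene; bars are means of the 4 PLX3397 mice, red for genes called lower and grey for those that did not pass, and points are single PLX3397 mice. The means run from 1.93% for Vav1 to 114% for Arhgdib, and those of the 34 genes called lie between 1.93% and 41.5%.

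Added up over the 34 genes called, PLX3397 mice held 21.6, 23.6, 25.3 and 24.1 CPM, against 119, 149, 128 and 123 CPM in control mice. Over the 10 genes tested that did not pass, the sums were 198, 198, 197 and 210.3 CPM in PLX3397 mice, against 249.98, 235, 216 and 224 CPM in control mice. The PLX3397 mice were close to one another in the first sum, with a median over the 34 genes of 7.81%, 10.7%, 12.3% and 10.5% of the control level in mice 1 to 4. Among control mice the genes called tended to be highest in mouse 2, in 22 of 34, and lowest in mouse 1, in 17 of 34; the microglial marker sum was also highest in control mouse 2, at 267 CPM, and lowest in control mouse 1, at 220 CPM.

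To set each gene against the microglia themselves, the mean log2 CPM of the 12 microglial marker genes, none of which is among the 45, was subtracted in each mouse. This score averaged -0.997 in PLX3397 mice and 3.85 in control mice, a difference of -4.85. Relative to it, 37 of the 44 genes fell less or did not fall by limma, a share to be read against 99.8% of all genes tested, since most genes in the table did not change. The other 7, Vav1, Laptm5, Bin2, Susd3, Hcls1, Myo1f and Cd37, could not be told apart from the score; their differences from it ran from -0.28 for Vav1 to 0.74 for Cd37, each with a standard error of 0.39. With a prior count of 2, a gene without reads stands at -4.76 on the log2 CPM scale. A gene with a low control level could therefore not fall as far as the score. For genes such as Cd48, at -1.38 to -0.908 in control mice, falling less was fixed by this floor. No gene of the set fell more than the score by the test, against 0.0397% of all genes, and the same number, 7, was not told apart when each gene's own spread was used. The standard error is the same for every gene because limma moderated the spread fully to a common value; the score itself had an SD of 0.62 among PLX3397 mice and 0.12 among control mice, which every gene's difference shares. Without moderation the adjusted p-values varied more between genes, and that of Ptprc was 0.0443, against 2.12e-07 with it. Over all 44 genes the differences reached 5.02 for Evi2a. Among the genes called lower, Lyn, Lcp2, Lcp1, Dock8 and Apbb1ip fell less than the score by 3.26, 3.36, 3.59, 3.44 and 3.46 on the log2 scale.

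For comparison, 26 relatives from the same protein families that are widely expressed in the brain were paired with members. None of the 26 passed in either direction by edgeR or limma-voom. By edgeR 1.16% of all genes passed in either direction, and none of 26 is near that share. The median log2 fold change of the relatives was 0.00 and their range -0.37 to 0.34. At an unadjusted p of 0.05, Vav2 and Il10rb were lower and Ptpn11 higher, against 2212 of all 20140 genes in either direction. DESeq2 called Vav2 lower. Vav2 stood at 12.3, 13.9, 13.3 and 11.5 CPM in PLX3397 mice, against 15.9, 17.2, 17.6 and 14.8 CPM in control mice (log2 fold change -0.36, SE 0.09, adjusted p = 0.154; 0.0156 by DESeq2). The groups of Vav2 do not overlap, and 78.1% of its control level was left, against 1.93% of that of Vav1.

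The other relatives are given by their means in CPM (SD, n = 4 each). Beside Laptm5, Laptm4a averaged 175 ± 15.2 CPM in PLX3397 mice and 179 ± 11.0 CPM in control mice, and beside Btk, Tec averaged 1.61 ± 0.357 CPM in PLX3397 mice and 1.61 ± 0.430 CPM in control mice. Beside Lyn, Fyn averaged 144 ± 23.0 CPM in PLX3397 mice and 123 ± 4.75 CPM in control mice (log2 fold change 0.23, adjusted p = 0.470). Per mouse, the groups overlap for all 3 of these relatives. Of the phosphatases, Ptpn11, which encodes SHP-2, averaged 224 ± 11.5 CPM in PLX3397 mice and 202 ± 6.98 CPM in control mice (log2 fold change 0.15, adjusted p = 0.404), and Ptpn12 averaged 35.5 ± 3.20 CPM in PLX3397 mice and 35.0 ± 1.79 CPM in control mice. Cttn, the cortactin gene beside Hcls1, averaged 123 ± 9.45 CPM in PLX3397 mice and 137 ± 7.43 CPM in control mice (log2 fold change -0.15, adjusted p = 0.461). Whether a member and its relative differed in their change was not tested for single pairs.

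Beside Pik3cg, the ubiquitous catalytic subunit gene Pik3cb averaged 30.5 ± 3.49 CPM in PLX3397 mice and 30.9 ± 1.84 CPM in control mice. Arhgdia, the broadly expressed partner of Arhgdib, averaged 274 ± 8.52 CPM in PLX3397 mice and 287 ± 16.7 CPM in control mice. In the cytoskeletal class, Pls3, a plastin like Lcp1, averaged 158 ± 40.1 CPM in PLX3397 mice and 189.8 ± 26.9 CPM in control mice (log2 fold change -0.27, adjusted p = 0.616). Coro1c averaged 89.9 ± 6.25 CPM in PLX3397 mice and 90.4 ± 2.27 CPM in control mice, and Parva 56.3 ± 5.39 CPM in PLX3397 mice and 55.2 ± 5.47 CPM in control mice. Myo1e averaged 15.7 ± 0.736 CPM in PLX3397 mice and 15.3 ± 2.34 CPM in control mice, and Bin1 269 ± 11.2 CPM in PLX3397 mice and 285 ± 22.1 CPM in control mice. None of these differences exceeded the spread between mice by the test.

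**Figure D3:**
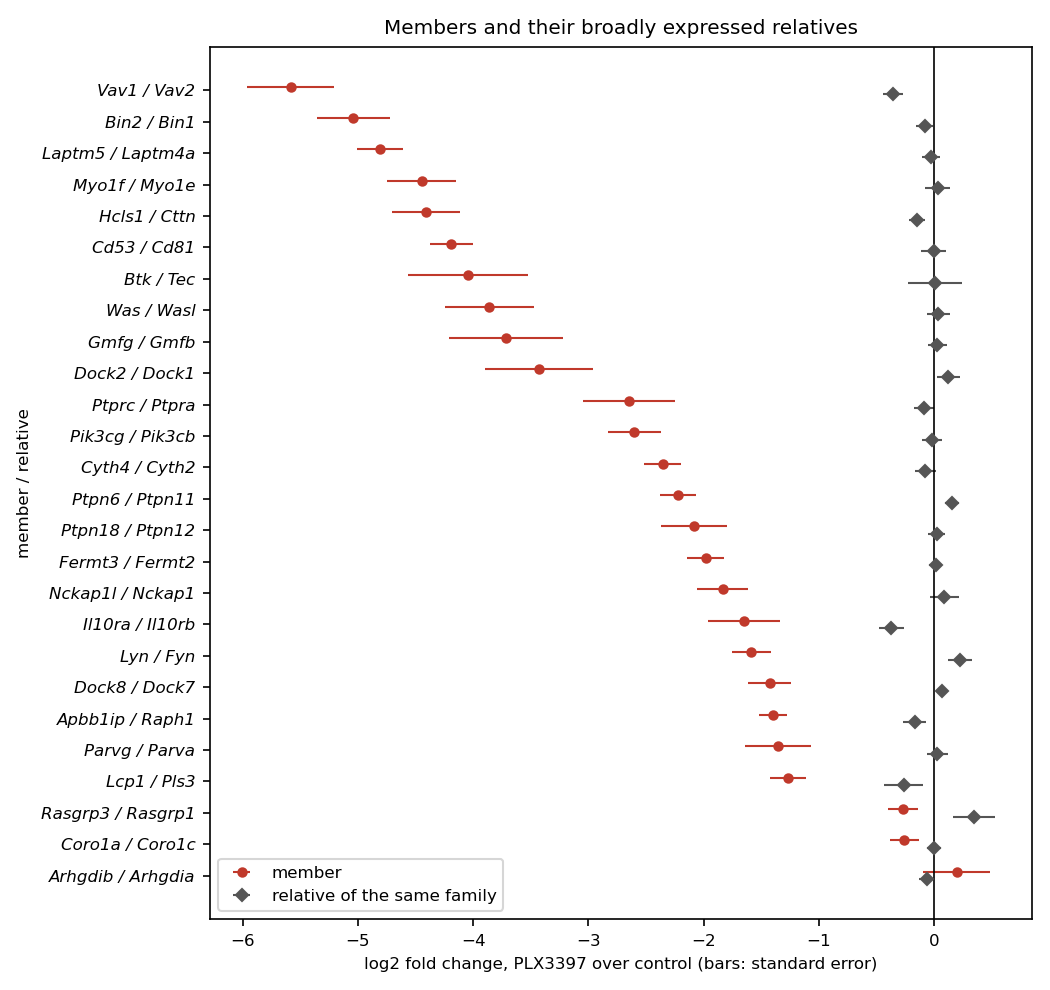
Log2 fold change, PLX3397 over control, of each paired member (red circles) and of its widely expressed relative (grey diamonds); points are edgeR estimates and bars their standard errors. The relatives lie between -0.37 and 0.34, while most members lie far below 0.

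Of 52 other leukocyte genes of the same pathways that are not members, 49 were tested. By edgeR 14 were lower and none was higher, against 1.11% and 0.0546% of all genes tested. The median log2 fold change of the 49 was -0.19. At an unadjusted p of 0.05, 23 were lower and 2 higher, against 1128 lower and 1084 higher of all 20140 genes. Spi1, the gene of PU.1, averaged 0.0651 CPM in PLX3397 mice and 2.30 CPM in control mice (log2 fold change -5.06, SE 0.33, adjusted p = 3.15e-05). Cd33, a sialic acid-binding receptor, fell by 4.88 on the log2 scale, Csf3r, the receptor for G-CSF, by 4.79, and the GTPase-activating protein gene Arhgap45 by 4.49. Rasgrp2, a Rap exchange factor known from platelets and striatal neurons, had the most positive value, 0.85 (SE 0.35, adjusted p = 0.413), at 112, 54.9, 149 and 131 CPM in PLX3397 mice, against 43.2, 95.9, 72.3 and 38.0 CPM in control mice. Arhgap25 followed with 0.35 (adjusted p = 0.755). For Rasgrp2 too, mouse 2 is lowest in the PLX3397 group and highest in the control group, as in the striatal marker sum.

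Markers of other cell types were read beside these results. Among markers of oligodendrocyte precursors, 3 of 5 were lower, against 1.11% of all genes tested. These were Pdgfra (log2 fold change -0.98), Cspg4 (-0.86) and Matn4 (-1.005). The other precursor markers, Olig1 and Olig2, had log2 fold changes of -0.02 each. Of the 6 oligodendrocyte markers none passed by edgeR, but all had positive log2 fold changes, from 0.21 to 0.62. At an unadjusted p of 0.05 by edgeR 5 were higher, against 1084 of all 20140 genes. Cldn11 (0.62, adjusted p = 0.0680) and Mal (0.62, adjusted p = 0.0739) were higher in every PLX3397 mouse than in any control mouse. Of all genes tested, 2.28% lay above in every mouse. Cldn11 and Mal were named after their values were seen. Of the 8 listed markers of macrophages at the brain's borders, 5 were tested and 3 were lower, against 1.11% of all genes tested. The 8, among them Mrc1 and Cd163, held 3.17 to 5.96 CPM in PLX3397 mice and 12.6 to 17.7 CPM in control mice. Summed markers of T cells were 13.2 to 43.4 CPM in PLX3397 mice and 11.5 to 23.2 CPM in control mice, of B cells 6.30 to 23.3 CPM in PLX3397 mice and 8.97 to 17.1 CPM in control mice, and none of the 5 and 3 tested passed by edgeR. Neutrophil markers held 1.41 to 2.09 CPM in PLX3397 mice and 2.07 to 2.81 CPM in control mice, with Ly6g at 0 in every library. Monocyte markers held 0.127 to 0.305 CPM in PLX3397 mice and 0.240 to 0.349 CPM in control mice, natural killer cell markers 0.0907 to 0.122 CPM in PLX3397 mice and 0.0548 to 0.144 CPM in control mice, and mast cell markers 0.0725 to 0.325 CPM in PLX3397 mice and 0.124 to 1.04 CPM in control mice. Platelet markers held 17.5 to 23.3 CPM in PLX3397 mice and 15.8 to 20.2 CPM in control mice. Globin and other red cell markers held 1.42 to 5.01 CPM in PLX3397 mice and 1.83 to 4.61 CPM in control mice. Of the 5 platelet markers 2 were tested. Among the 5, Gp1bb shares exon bases on the same strand with Sept5 and Gm49601, and Pf4 is also a listed border macrophage marker. The platelet sum is therefore no clean measure of platelets. The border macrophage markers did not move as one. Stab1, at 11.7 CPM in control mice and 2.18 CPM in PLX3397 mice, made up most of the sum in control mice only. Cd163 averaged 2.15 CPM in PLX3397 mice and 0.956 CPM in control mice (log2 fold change 1.18, unadjusted p = 0.0255, adjusted p = 0.380). Most of the T cell sum in PLX3397 mice was Cd4, at 24.1 CPM, against 6.79 CPM in control mice. Cd3e held 0.0771 CPM in PLX3397 mice and 0.126 CPM in control mice. In each group the T cell sum was highest and lowest in the same mice as the striatal marker sum. The part of any of these cell types in the results on the 45 genes was not tested.

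Within the mice with Hcrt reads alone (2 against 2), 16 of the 44 genes were lower, against 0.325% of all genes tested in that fit, with a median log2 fold change of -2.46. Within the mice with few Hcrt reads, 26 were lower, against 0.899% of all genes tested in that fit, with a median of -2.28. Both medians are near the -2.40 of all mice, and the fits on 4 libraries have fewer samples.

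**Figure D4:**
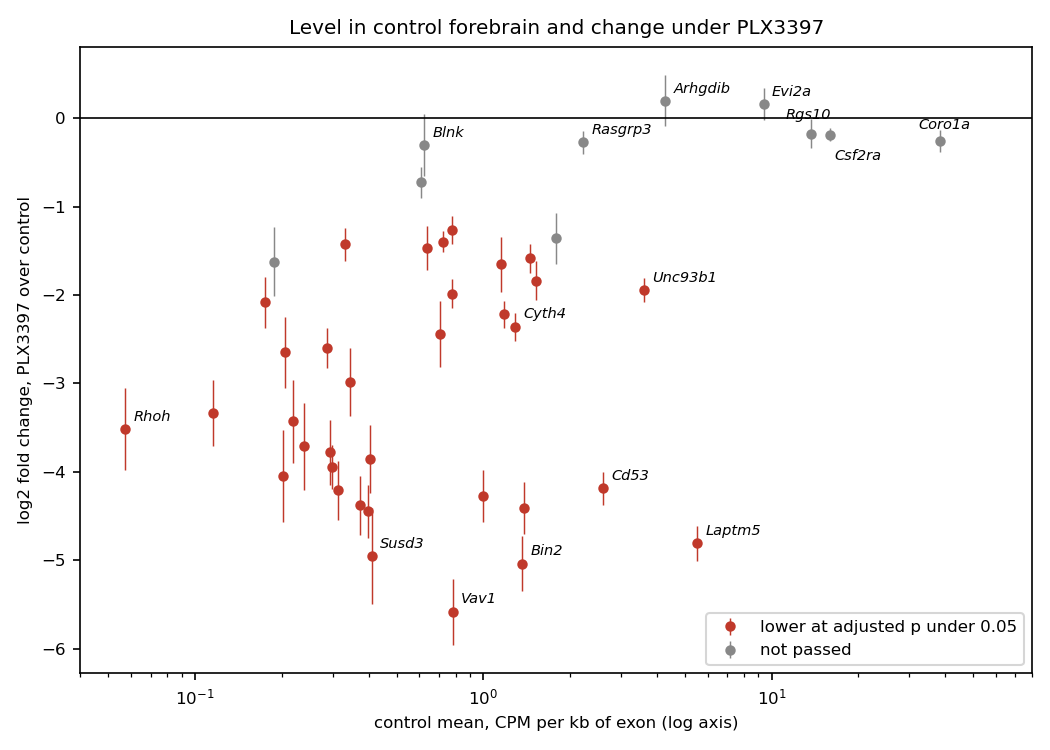
Control level per kilobase of exon (CPM per kb, log axis) against the log2 fold change, PLX3397 over control, of the 44 tested genes; red points were called lower, grey points did not pass, and bars are standard errors. Coro1a is the most abundant per kilobase and lies near 0, and Laptm5 is the most abundant of the genes called.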

How the data were processed

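RNA from whole forebrain was sequenced for 4 PLX3397 and 4 control mice, grouped by the sample titles. The table the authors deposited holds raw read counts per gene symbol (53278 symbols), whole numbers and not normalized. The submitters' processing notes name STAR, DESeq, DESeq2, FastQC and MultiQC and the mm10 build; of their versions, settings, annotation and strand nothing is stated in the labels. Coordinates and exon lengths came from GENCODE M21, in which 49721 of the symbols and all 45 members were found.

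Genes were filtered with filterByExpr (20140 kept), scaled by TMM and tested with edgeR 4.0.16 (quasi-likelihood, R 4.3.3), 4 mice against 4 with no covariate; p-values were adjusted by Benjamini and Hochberg across the whole table, at a threshold of 0.05. Each standard error is the fold change divided by the root of its F statistic. Levels are CPM on the TMM scale; log2 CPM used a prior count of 2. limma 3.58.1 tested each gene's log2 CPM minus the microglial marker score. DESeq2 1.42.0, limma-voom, other scalings and filters, blocks and leaving out each mouse were alternatives. The scripts were tested on simulated counts.

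Total counts ran from 48455538 to 68406688, so 1 CPM is 48.6 to 69.3 counts; the biological coefficient of variation was 16.1%. By chi-square tests every pair of libraries of a group differed beyond sampling noise, by a factor of 11.2 or more per gene.

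The members, their relatives and the marker lists were chosen with earlier results of these data known. Members of each role given per mouse are the pair with the highest level per kilobase, the pair with the most negative change and the pair nearest 0, plus any that failed the filter. Of the other leukocyte genes, the 4 with the smallest p and the 2 with the most positive change are named.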

Additional observations from a re-analysis of the deposited data

Results flagged for a closer look

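Over tested members, named relatives and named other leukocyte genes, 128 groups of 4 mice were examined. In 9 of them 1 mouse stood apart from the other 3 by Dixon's ratio, and chance gives about 1 in 20. The ratio is the gap of that mouse to the nearest mouse over the whole range of log2 CPM, with a 95% critical value of 0.829. Control mouse 2 was the high one for 3 members. For Cd86 it held 2.02 CPM, against 1.14 to 1.17 CPM in the other control mice (ratio 0.955), for Susd3 1.40 against 1.07 to 1.10 CPM (ratio 0.897) and for Ptpn6 3.87 against 3.07 to 3.14 CPM (ratio 0.896). The microglial marker sum was also highest in that mouse, and all 3 genes stayed lower in PLX3397 mice without it.

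Control mouse 1 was low for Lyn, at 5.08 CPM against 6.08 to 6.21 CPM (ratio 0.894), and for the relative Ptpn12, at 32.3 against 35.5 to 36.2 CPM (ratio 0.832). Control mouse 4 was low for Rasgrp3, at 10.6 against 13.6 to 13.9 CPM (ratio 0.916). PLX3397 mouse 2 was high for Lcp2, at 1.63 against 0.780 to 0.884 CPM (ratio 0.831), and for the relative Cttn, at 137 against 118 to 119 CPM (ratio 0.928). PLX3397 mouse 3 was low for Coro1a, at 71.1 against 93.1 to 96.4 CPM (ratio 0.885).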

How the results depend on the processing

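Of the 44 tested members, 37 kept their direction and their side of the threshold under each of the 16 other settings that tested them, among them 30 of the 34 called; 10 of the 44 were tested in 15 of the 16. No member changed sign in these. Between 32 and 35 members were lower, with medians from -2.45 to -2.22, when each mouse was left out in turn; none was higher. Over all genes these fits gave 178 to 441 lower and 2 to 243 higher; the 441 and 243 came without PLX3397 mouse 2, and the other fits gave 214 or fewer lower and 8 or fewer higher. Other leukocyte genes gave 12 to 16 lower. Relative to the microglial score, 36 to 40 members fell less or did not fall with 1 mouse left out, and 34 with a prior count of 0.5; none fell more. Requiring 1 CPM in 4 libraries leaves out 9 weakly expressed called members, and the median was -1.96. DESeq2 gave 346 lower and 118 higher over all genes and 1 relative lower (Vav2); no filter gave 25 higher and the 1 CPM filter 6.

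With the mouse number as a block, 31 members and 11 other leukocyte genes were lower, and over all genes 161 were lower and 4 higher; the members lost were Cd52 (adjusted p = 0.0799), Il10ra (0.188) and Gmfg (0.0623). The correlations of same-numbered mice were -0.22, -0.17, 0.37 and -0.01, and those of differently numbered mice ran from -0.38 to 0.44. The labels name no pairing, and the samples are not treated as paired. In both groups mice 2 and 3 are those with many Hcrt reads. Whether same-numbered mice shared a processing step cannot be told from these values.

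Fits within the mice with many and few Hcrt reads, chosen after seeing the data, gave 16 and 26 members lower, 4 and 8 other leukocyte genes lower, and 66 genes lower and 0 higher over all genes with Hcrt reads. With few Hcrt reads 184 genes were lower and 128 higher over all genes, and 1 other leukocyte gene, Rasgrp2. With Hcrt reads the log2 fold changes that changed sign were Arhgdib (-0.14), Coro1c (0.048), Ptpn12 (-0.10), Bin1 (0.010) and Laptm4a (0.0072); without them Rgs10 (0.0025), Parva (-0.042), Tec (-0.28) and Myo1e (-0.17), all uncalled. With 1 mouse left out, relatives near 0 changed sign: Coro1c ranged from -0.046 to 0.031, Ptpn12 from -0.017 to 0.089, Pik3cb from -0.077 to 0.031, Parva from -0.034 to 0.086, Tec from -0.093 to 0.18, Myo1e from -0.037 to 0.13 and Laptm4a from -0.065 to 0.012. The cause of these shifts was not tested. Members under about 0.1 CPM in PLX3397 mice rest on few counts per library.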
